A study of Drosophila melanogaster with 24 samples.

Results

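The breakdown of phenylalanine and tyrosine was followed through 5 *Drosophila* genes in the order of the pathway: *Hn*, *Tat*, *Hpd*, *hgo*, and *Faa*. They were chosen by symbol and FlyBase identifier, all 5 were found among the 17611 gene identifiers of the count table, and their level was read as CPM (counts per 1000000 counts of a library) in each of 18 RNA-seq libraries of whole adult flies. Counts of 4 of the 5 genes passed the filter on low counts, and *Tat* did not.

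All groups were of the strain w1118, with males and females in equal numbers, and were kept on yeast-glucose medium. PD flies, the rotenone model of Parkinson's disease, were fed rotenone, an inhibitor of mitochondrial complex I, dissolved in DMSO for 7 days, and CTRL flies were fed DMSO over the same days. Both were collected on day 7, which was 14 days post eclosion. The other 4 groups were collected on day 14, which was 21 days post eclosion. CWFP flies were control flies that then received fecal microbiota transplantation (FMT) of ground gut content from PD flies for another 7 days, and CWOFP flies were control flies that did not receive it. PWFC flies had been fed rotenone and then received FMT from control flies, and PWOFC flies had been fed rotenone and did not. By the study, the medium held no rotenone after day 7, and flies without FMT were reared on yeast-glucose medium for another 7 days. Whether that medium held DMSO is not stated. The protocol in the sample labels gives 250 µM rotenone for every library, those of DMSO-fed flies included. Each group had 3 libraries. The study calls them biological replicates. Whether they came from separate vials of flies is not given in the sources used here, and p-values measure the spread between these libraries.

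In animals, phenylalanine that is not used for protein is hydroxylated to tyrosine, and surplus tyrosine is taken apart by a chain of enzymes that ends in fumarate, which enters the citric acid cycle, and acetoacetate. The same tyrosine also feeds dopamine, tyramine, cuticle tanning, and melanin. In humans, loss of single steps gives phenylketonuria, tyrosinemia, and alkaptonuria. The fly enzyme *Hn* (Henna, FBgn0001208) is phenylalanine hydroxylase, which uses tetrahydrobiopterin. *Tat* (FBgn0030558) is tyrosine aminotransferase, *Hpd* (FBgn0036992) makes homogentisate from 4-hydroxyphenylpyruvate, *hgo* (FBgn0040211) is homogentisate 1,2-dioxygenase, and *Faa* (FBgn0016013) is fumarylacetoacetase, the last enzyme. Between *hgo* and *Faa* stands maleylacetoacetate isomerase, the activity of the zeta class of glutathione S-transferases, which *GstZ1* and *GstZ2* encode.

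The 5 genes lie apart in the genome (BDGP6.54, coordinates of dm6). *Hn* is at chr3L:7760453-7763166 on the plus strand with 2115 exonic bases, and *hgo* at chr2L:11136393-11138565 on the plus strand with 1445. *Faa* is at chr3L:4072032-4073954 on the minus strand with 1421 exonic bases. None of these 3 shares exonic sequence with another gene. *Hpd*, at chr3L:20438166-20439872 on the minus strand with 1518 exonic bases, shares 273 of them with the noncoding lncRNA:CR45176 and 141 with CtIP, both on the opposite strand. How strand was treated in the counting is not given in the sources used here, so part of the *Hpd* count may belong to these neighbors. The count of lncRNA:CR45176 was between 0 and 3 in every library, that of CtIP between 347 and 1165, and that of *Hpd* between 267 and 4656.

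For measurement by RT-qPCR in another batch of flies, the study designed primer pairs against *Hpd*, *hgo*, and *Faa*, and against *GstZ2* of the isomerase step. They are shown because they are the oligos with which 3 of the 5 genes were read outside RNA-seq. For genes selected from tyrosine metabolism, the study describes RT-qPCR in flies given feces of PD patients or of healthy people. Those flies are not among the groups compared here. They were between 20 and 25 bases long with a GC content between 40% and 60%, where they bind in each transcript was not determined, and the RT-qPCR values were not analysed here.
Hpd forward: cgtgtaagatcgacggaacga
Hpd reverse: tcagtatagctggtcattatcactc
hgo forward: cttcgttttgccggacttgg
hgo reverse: acggtgtgattttgcttggc
Faa forward: tcgctcatcacacagtcacc
Faa reverse: gtcttaccacccggaagctc
GstZ2 forward: agaactcacgacgaaaagca
GstZ2 reverse: acgatttgtttagcatctgccc

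Total counts per library were between 17920498 and 29165130 with a median of 21859942, and mitochondrial genes took between 5.71% and 16.1% of them. The libraries also differed in RNA of organs. The summed CPM of 3 eye genes (ninaE, ninaC, and trp) was 2893 to 3665 in PD flies and 1716 to 2051 in CTRL flies, against 84.2 to 96.7 in CWFP, 84.1 to 377 in CWOFP, 593 to 1213 in PWFC, and 93.4 to 546 in PWOFC flies. The sum of the 4 ovary genes found was 712 to 1168 in PD and 2575 to 3348 in CTRL flies, 1225 to 3404 in CWFP and 723 to 1375 in CWOFP flies, and 2940 to 3865 in PWFC and 2365 to 4002 in PWOFC flies. The 6 fat body genes found summed to 9581 to 9755 in PD and 17830 to 29250 in CTRL flies. Their sum was 9669 to 14070 in CWFP, 7431 to 14890 in CWOFP, 18560 to 32710 in PWFC, and 25680 to 30430 in PWOFC flies. The yolk protein genes Yp1, Yp2, and Yp3 made up most of the fat body sum in every group, and for Apoltp and FASN1 of the same list PD libraries overlapped with CTRL libraries, and PWOFC libraries with both CWOFP and PD libraries. The 3 gut enterocyte genes summed to 7165 to 9763 CPM in PD and 8601 to 12350 CPM in CTRL flies, 4873 to 8106 CPM in CWFP and 2872 to 3989 CPM in CWOFP flies, and 9334 to 12080 CPM in PWFC and 5808 to 6705 CPM in PWOFC flies. The 3 flight muscle genes summed to 114 to 228 CPM in PD and 68.3 to 88.9 CPM in CTRL flies, 58.4 to 157 CPM in CWFP and 67.0 to 313 CPM in CWOFP flies, and 94.2 to 98.4 CPM in PWFC and 78.3 to 90.8 CPM in PWOFC flies. The 3 Malpighian tubule genes summed to 112 to 185 CPM in PD and 69.4 to 108 CPM in PWOFC flies, which did not overlap. The sum of this list overlapped in the other comparisons of a pair of groups. By themselves, CapaR and Irk3 of this list did not overlap between PWOFC and CWOFP flies. In libraries of whole flies, fewer cells of a type and less RNA per cell cannot be told apart.

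*Hn*, the entry to the pathway, was the most abundant of the 5 transcripts. PD libraries had 317, 297, and 308 CPM, and CTRL libraries had 199, 236, and 189 CPM. All 3 PD libraries lay above all 3 CTRL libraries. On day 14, CWFP libraries had 82.2, 145, and 104 CPM, and CWOFP libraries had 127, 134, and 104 CPM. PWFC libraries had 193, 115.3, and 152 CPM, and PWOFC libraries had 123, 119, and 139 CPM. In order of the means, *Hn* was highest in PD (307 ± 9.82 CPM, SD, n = 3), then in CTRL (208 ± 24.7), PWFC (154 ± 38.9), PWOFC (127 ± 10.7), CWOFP (122 ± 15.7), and CWFP flies (111 ± 31.9). Apart from PD and CTRL, the libraries of each group overlapped with those of the next in this order.

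*Tat*, the second step, was close to absent from the counts. Over all 18 libraries it received 15 counts. It had 2, 3, and 1 counts in PD libraries, and 1, 3, and 1 in CTRL libraries. On day 14 it had 0 in each CWFP and each CWOFP library, 1, 0, and 1 in PWFC libraries, and 0, 0, and 2 in PWOFC libraries. A count of 0 allows up to 3 counts, which was 0.131 to 0.145 CPM in the 9 libraries without a count. This limit, like every interval on counts, covers counting error only. No change of *Tat* was detectable at this depth.

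*Tat* is at chrX:14261223-14265379 on the plus strand, and all of its 2509 exonic bases are shared with exons of other genes. CG46317 lies on the same strand and shares 1974 of them, and CG13404 on the opposite strand shares 643. CG46317 had 0 counts in each of the 18 libraries, and CG13404 had between 4 and 40. Whether the counting discarded reads that fit more than one gene is not given in the sources used here, so the low count of *Tat* is not a measurement of its transcript.

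**Figure D1:**
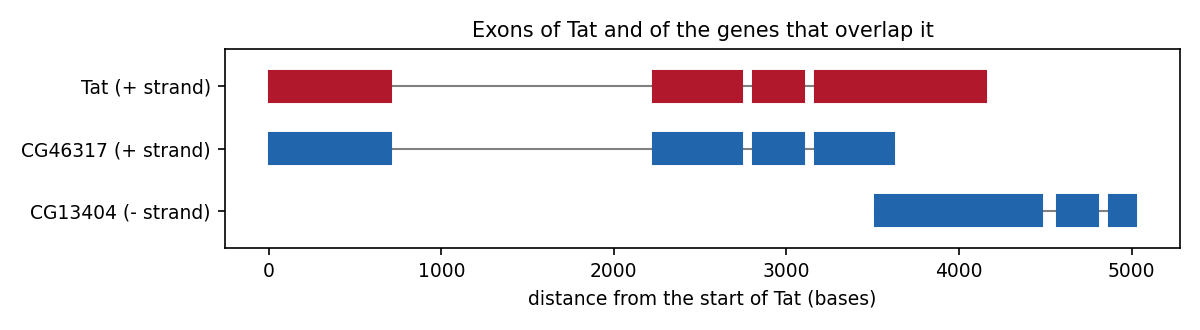
Exons (boxes) of Tat in red and of the 2 genes that overlap it in blue, by distance in bases from the start of Tat, with the gene's strand beside each name. The first 3 exons of Tat coincide with those of CG46317, and its last exon runs past CG46317 into CG13404.

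*Hpd*, whose product opens the way to homogentisate, had 184, 140, and 125 CPM in PD libraries, and 59.7, 99.6, and 71.8 CPM in CTRL libraries. CWFP libraries had 11.6, 28.3, and 21.5 CPM, and CWOFP libraries had 22.4, 27.1, and 27.6 CPM. PWFC libraries had 49.4, 26.8, and 35.2 CPM, and PWOFC libraries had 42.9, 42.8, and 58.7 CPM. The lowest library of PD flies lay above the highest of CTRL flies, and every library of day 14 lay below all 6 of day 7. The highest library, PD replicate 1, had 15.8 times the CPM of the lowest, CWFP replicate 1, which was the widest range of the 4 genes that passed the filter.

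*hgo*, which opens the aromatic ring of homogentisate, had 80.2, 57.5, and 56.2 CPM in PD libraries, and 22.0, 37.5, and 26.1 CPM in CTRL libraries. CWFP libraries had 6.97, 17.3, and 13.9 CPM, and CWOFP libraries had 8.18, 14.1, and 11.02 CPM. PWFC libraries had 22.5, 16.4, and 18.9 CPM, and PWOFC libraries had 16.8, 18.2, and 25.3 CPM. PD libraries stood clear of all others, whereas CTRL libraries overlapped with PWOFC and PWFC libraries. The mean was 19.3 ± 3.04 CPM in PWFC and 20.1 ± 4.57 CPM in PWOFC flies, and 12.7 ± 5.27 CPM in CWFP and 11.1 ± 2.96 CPM in CWOFP flies, and each pair of means differed by less than its smaller SD.

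*Faa*, the last step, had 34.6, 31.1, and 28.7 CPM in PD libraries, and 15.96, 25.0, and 16.2 CPM in CTRL libraries. CWFP libraries had 3.88, 9.34, and 10.4 CPM, and CWOFP libraries had 8.45, 9.69, and 11.8 CPM. PWFC libraries had 13.4, 8.42, and 11.02 CPM, and PWOFC libraries had 9.05, 10.3, and 11.2 CPM. Every PD library lay above every CTRL library, every CTRL library lay above the 12 libraries of day 14, and the 4 groups of day 14 overlapped each with the next.

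**Figure D2:**
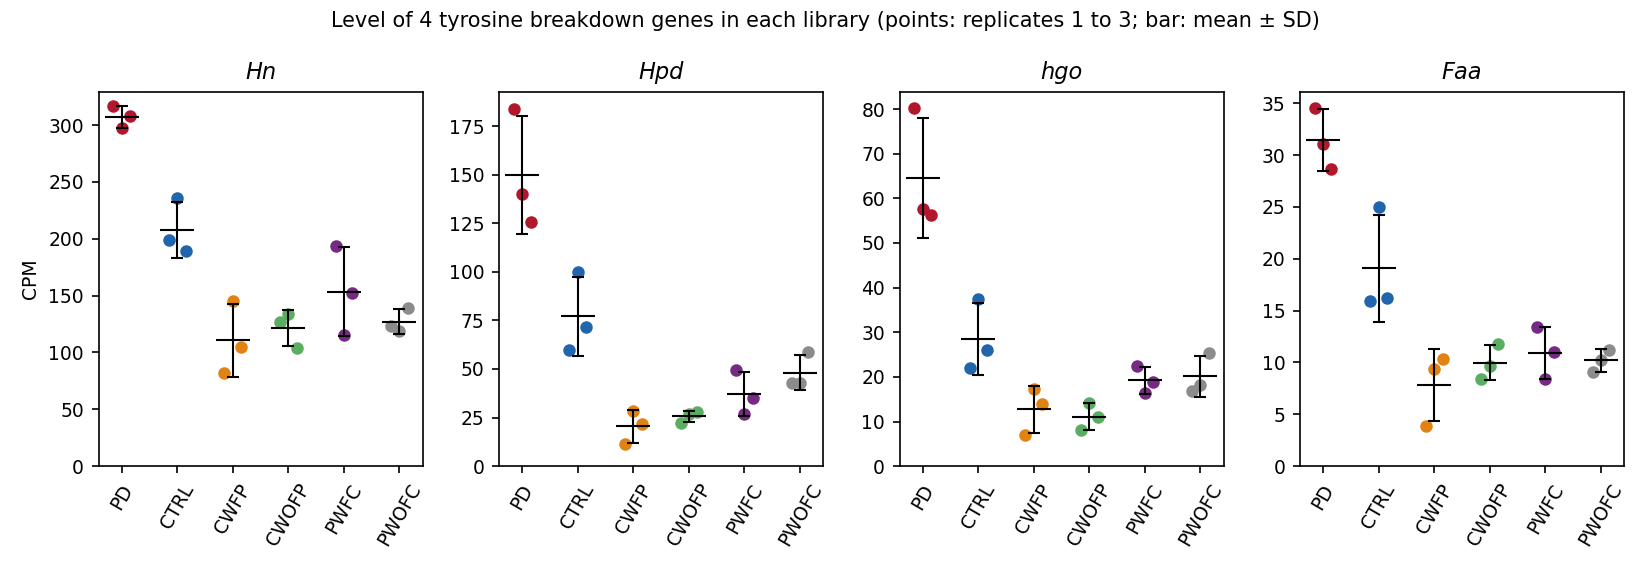
CPM (linear axis from 0) of Hn, Hpd, hgo, and Faa in each of the 18 libraries, by group, with the mean and SD of 3 libraries as the bar. For each gene the 3 PD points lie above all other points, and the lowest point is CWFP replicate 1.

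Per kilobase of exon, and with *Tat* and the isomerase genes aside, mean levels went down in the order *Hn*, *Hpd*, *hgo*, and *Faa* in every group. In PD flies they were 145 ± 4.64 CPM per kb for *Hn*, 98.7 ± 20.0 for *Hpd*, 44.7 ± 9.33 for *hgo*, and 22.1 ± 2.08 for *Faa* (SD, n = 3), and in CTRL flies 98.2 ± 11.7, 50.8 ± 13.5, 19.7 ± 5.59, and 13.4 ± 3.62. In CPM, the 4 genes together summed to 553 ± 53.9 in PD and 332 ± 56.8 in CTRL flies. The sum was 152 ± 47.7 in CWFP and 168 ± 15.3 in CWOFP flies, and 221 ± 55.9 in PWFC and 206 ± 25.1 in PWOFC flies. *Hn* made up 55.8% of the summed CPM in PD flies, 62.9% in CTRL, 73.6% in CWFP, 72.1% in CWOFP, 69.5% in PWFC, and 62.0% in PWOFC flies. The share of *Hpd* was 26.9% in PD flies and 13.2% in CWFP flies.

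The first comparison asked what 7 days of rotenone did to these genes. Of the 4 genes tested, *hgo* rose in PD compared with CTRL flies. PD flies had a mean of 64.6 ± 13.5 CPM and CTRL flies of 28.5 ± 8.08 CPM (SD, n = 3 each), and the log2 fold change was 1.14 (SE 0.24) with an adjusted p of 0.0429 (edgeR quasi-likelihood test, Benjamini-Hochberg over all genes tested, threshold 0.05, as in all comparisons below). The other 3 did not pass. *Hpd* averaged 150 ± 30.4 CPM in the PD and 77.1 ± 20.5 CPM in the CTRL group, with a log2 fold change of 0.92 (SE 0.24, adjusted p = 0.0519). *Hn* had a log2 fold change of 0.53 (SE 0.15, adjusted p = 0.0617), and *Faa* had 0.68 (SE 0.22, adjusted p = 0.0680), with means of 31.4 ± 2.96 CPM in the PD and 19.1 ± 5.14 CPM in the CTRL group.

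Of all 12643 genes tested in this comparison, 3.17% passed and 1.72% passed as higher in PD flies. PD libraries lay above CTRL libraries without overlap for all 4 genes, as they did for 23.8% of all genes tested. The median log2 fold change was 0.80 over the 4 genes and 0.05 over all genes. The call of *hgo* was lost without PD replicate 1 (adjusted p = 0.179), PD replicate 2 (0.115), CTRL replicate 1 (0.121), or CTRL replicate 3 (0.171), and in a fit of all 6 groups (0.132), within a range of 0.000119 to 0.179 over the 12 alternatives. CTRL replicate 2 was the highest CTRL library for each of the 4 genes. Without it all 4 passed, with log2 fold changes of 0.64 for *Hn*, 1.16 for *Hpd*, 1.40 for *hgo*, and 0.94 for *Faa*, and so did 41.9% of all genes. The sums of eye and flight muscle genes were higher, and those of ovary and fat body genes lower, in PD than in CTRL libraries without overlap. By themselves, fln, osk, Apoltp, and FASN1 of these lists overlapped. The part of these lists in the values of the 4 genes was not tested.

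At the isomerase step the 2 genes differed in sign between PD and CTRL flies. *GstZ2* had 20.6, 14.02, and 13.9 CPM in PD libraries against 8.21, 10.7, and 10.6 CPM in CTRL libraries, with a log2 fold change of 0.68 (SE 0.22, adjusted p = 0.0682). *GstZ1* had 12.5, 16.1, and 13.0 CPM in PD libraries against 15.5, 22.4, and 19.6 CPM in CTRL libraries, with a log2 fold change of -0.50 (SE 0.20, adjusted p = 0.111). Neither passed.

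Of the other 25 pathway genes tested, in 4 lists, 0 passed in PD compared with CTRL flies in edgeR, 9 had an unadjusted p under 0.05, and 4 passed in DESeq2. Of all 12643 genes tested, 4749 had an unadjusted p under 0.05, and in DESeq2 25% of 11899 genes passed. The lists were the isomerase step, the enzymes of tetrahydrobiopterin (the cofactor of *Hn*), other uses of tyrosine, and the breakdown of other amino acids. Their median log2 fold change was 0.13. *ple*, tyrosine hydroxylase of dopamine synthesis, had 37.3, 29.2, and 40.8 CPM in PD libraries and 37.5, 25.5, and 22.9 CPM in CTRL libraries (log2 fold change 0.28, adjusted p = 0.334).

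The second comparison asked what FMT from PD flies did in control flies. None of the 4 genes passed in CWFP compared with CWOFP flies. The log2 fold changes were -0.15 for *Hn* (95% interval -0.74 to 0.44), -0.34 for *Hpd* (-1.16 to 0.47), 0.19 for *hgo* (-0.81 to 1.18), and -0.36 for *Faa* (-1.43 to 0.71), with adjusted p of 0.9999 for each. In edgeR, 0 of the 4 passed, 0 had an unadjusted p under 0.05, and 0 passed in DESeq2. Over the 12473 genes tested 0% passed in edgeR and 269 had an unadjusted p under 0.05, and in DESeq2 51 of 12730 genes passed. The libraries of both groups overlapped for all 4 genes, and 6.73% of all genes did not overlap. The sum of the gut enterocyte genes was higher in CWFP libraries without overlap, although LManII by itself overlapped. The part of this list was not tested. The sign for *Hn* and *hgo* changed with a library left out, and the interval of each of the 4 genes reached past zero in both directions. Outside the members, *ple* had -1.54 (95% interval -2.76 to -0.33, unadjusted p = 0.0201, adjusted p = 0.9999), with overlapping libraries. *GstZ1* had 0.16 and *GstZ2* had -0.50, and neither passed.

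One library weighed on the values of the 4 genes. CWFP replicate 1 was the lowest of the 18 libraries for *Hn*, *Hpd*, *hgo*, and *Faa*, with 82.2, 11.6, 6.97, and 3.88 CPM. Without it the log2 fold changes of CWFP compared with CWOFP flies were 0.01, -0.07, 0.47, and -0.05 in that order, and none passed. The same library had a summed CPM of 26.2 for 5 genes of the male germline and accessory gland, against 882 and 1398 in the other 2 CWFP libraries. The part of this difference in the levels of the 4 genes was not tested.

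The third comparison asked what FMT from control flies did after rotenone. In PWFC compared with PWOFC flies the log2 fold changes were 0.29 for *Hn* (95% interval -0.13 to 0.70), -0.36 for *Hpd* (-0.90 to 0.17), -0.04 for *hgo* (-0.51 to 0.42), and 0.12 for *Faa* (-0.40 to 0.64). The adjusted p was between 0.993 and 1. Outside the members, the log2 fold change was 0.12 for *GstZ1*, 0.12 for *GstZ2*, and 0.21 for *ple*, and none of them passed. Again 0 of the 4 genes passed in edgeR, 0 had an unadjusted p under 0.05, and 0 passed in DESeq2. Over the 12026 genes tested 0% passed in edgeR and 496 reached an unadjusted p under 0.05, and DESeq2 passed 119 of 12986 genes. PWFC and PWOFC libraries overlapped for all 4 genes, whereas 11.3% of all genes tested did not overlap. The sums of the eye, gut enterocyte, and flight muscle genes were higher in PWFC libraries without overlap. By itself, each flight muscle gene overlapped, as did LManII of the gut enterocyte list and ninaC of the eye list. The part of these lists was not tested.

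The effect of FMT was then compared between flies with and without rotenone history. The difference of the 2 log2 fold changes (PWFC over PWOFC minus CWFP over CWOFP) was 0.48 for *Hn* (SE 0.32), 0.03 for *Hpd* (SE 0.43), -0.19 for *hgo* (SE 0.45), and 0.52 for *Faa* (SE 0.48), all with an adjusted p of 1. In edgeR 0 of the 4 passed, 0 had an unadjusted p under 0.05, and 0 passed in DESeq2. Of the 12707 genes tested 0% passed in edgeR and 303 had an unadjusted p under 0.05, and in DESeq2 1 of 16026 genes passed. Outside the members, the difference was -0.0091 for *GstZ1*, 0.67 for *GstZ2*, and 1.79 for *ple* (SE 0.57, unadjusted p = 0.00949). Over the alternatives, the adjusted p of *ple* went down to 0.0363.

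PWOFC and CWOFP flies differed in their rotenone history and were both on day 14 without FMT. *Hpd* had 42.9, 42.8, and 58.7 CPM in PWOFC libraries against 22.4, 27.1, and 27.6 CPM in CWOFP libraries, which did not overlap. Its log2 fold change was 0.95 (SE 0.15, 95% interval 0.59 to 1.303, unadjusted p = 0.000321, adjusted p = 0.109). *hgo* libraries did not overlap either, with 16.8, 18.2, and 25.3 CPM in PWOFC and 8.18, 14.1, and 11.02 CPM in CWOFP flies (log2 fold change 0.91, SE 0.24, unadjusted p = 0.00545, adjusted p = 0.125). The first and last genes of the pathway had smaller values, 0.10 for *Hn* (95% interval -0.19 to 0.40) and 0.07 for *Faa* (-0.40 to 0.54), and their libraries overlapped. Outside the members, *GstZ1* had 0.07, *GstZ2* had -0.32, and *ple* had -1.13 (SE 0.50, adjusted p = 0.221, 0.0252 to 0.453 over the alternatives).

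In edgeR 0 of the 4 genes passed in PWOFC compared with CWOFP flies, 2 had an unadjusted p under 0.05, and these 2, *Hpd* and *hgo*, passed in DESeq2 (adjusted p = 2.21e-05 and 0.00812, within ranges over the alternatives of 2.21e-05 to 0.384 and 0.00812 to 0.384). Of all 12297 genes tested 0.0407% passed in edgeR and 3097 had an unadjusted p under 0.05, and in DESeq2 10.7% of 12113 genes passed. Libraries of PWOFC flies lay above those of CWOFP flies without overlap for 10.2% of all genes. Eye genes overlapped between the groups, with sums of 93.4 to 546 CPM in PWOFC and 84.1 to 377 CPM in CWOFP flies. The sums of the ovary, gut enterocyte, and fat body genes did not overlap, with 2365 to 4002, 5808 to 6705, and 25680 to 30430 CPM in PWOFC flies against 723 to 1375, 2872 to 3989, and 7431 to 14890 CPM in CWOFP flies. Within the fat body list, the libraries of both groups overlapped for Apoltp, with a mean of 201 CPM in PWOFC flies against 199 CPM in CWOFP flies, and for FASN1, with 902 and 730 CPM in that order. The part of these lists in the values of *Hpd* and *hgo* was not tested.

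**Figure D3:**
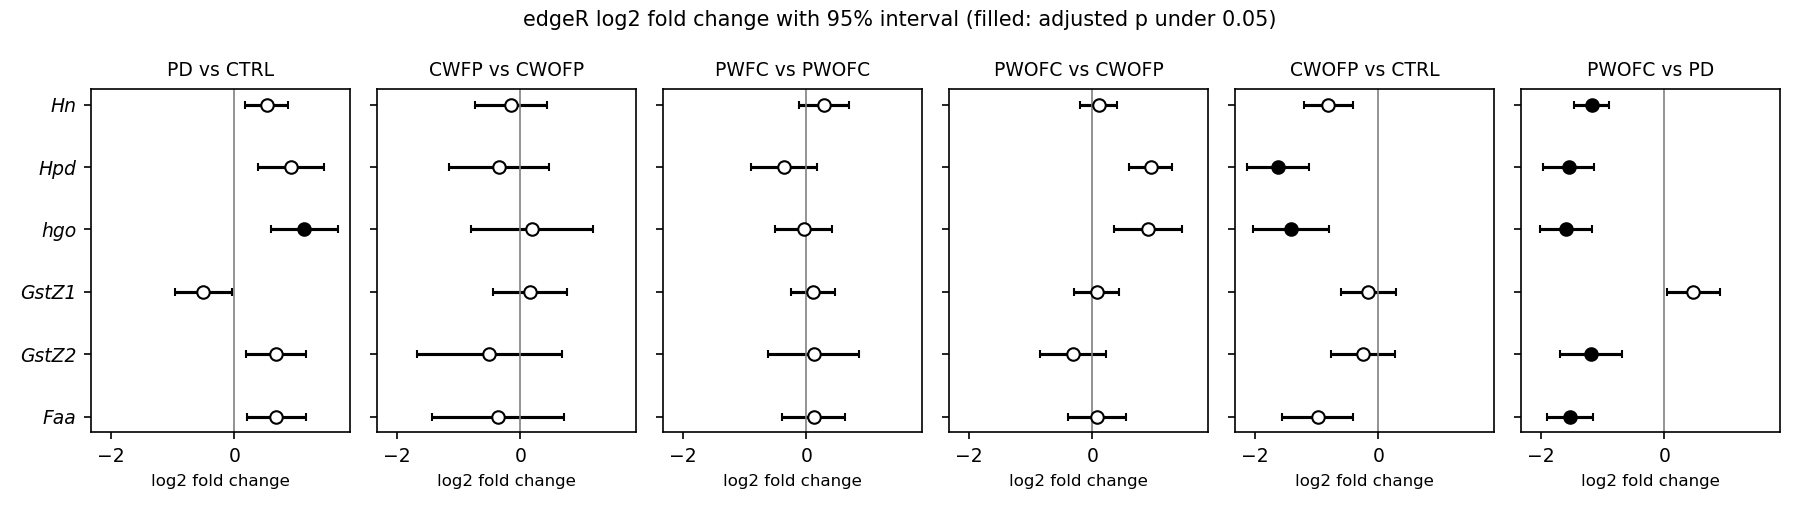
Log2 fold change (horizontal axis) with its 95% interval for Hn, Hpd, hgo, the 2 isomerase genes, and Faa in 6 comparisons, 1 panel each, with filled points for an adjusted p under 0.05. Only hgo is filled in PD vs CTRL, Hpd and hgo in CWOFP vs CTRL, and Hn, Hpd, hgo, GstZ2, and Faa in PWOFC vs PD.

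Day 14 was compared with day 7 in the flies without FMT. Age, time, and the change of medium after day 7 cannot be told apart in these comparisons. In CWOFP compared with CTRL flies, both without rotenone, *Hpd* and *hgo* fell. *Hpd* averaged 25.7 ± 2.85 CPM in CWOFP flies, against 77.1 ± 20.5 CPM in the CTRL group, and its log2 fold change was -1.63 (SE 0.22, adjusted p = 0.0124). *hgo* averaged 11.1 ± 2.96 CPM in CWOFP flies, against 28.5 ± 8.08 CPM in the CTRL group (log2 fold change -1.42, SE 0.27, adjusted p = 0.0414). *Hn* had -0.81 (SE 0.17, adjusted p = 0.0642) and *Faa* had -0.99 (SE 0.25, adjusted p = 0.117).

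Over the 12437 genes tested 2.03% passed, and 1.99% passed as lower in CWOFP flies. All 4 genes had CWOFP libraries below CTRL libraries without overlap, as had 9.17% of all genes. Their median log2 fold change was -1.20, against 0.003 over all genes. Leaving out any 1 of the 6 libraries in turn kept the call of *Hpd* and ended that of *hgo*, whose adjusted p was then between 0.0575 and 0.119. The sums of 4 marker lists were also lower in CWOFP than in CTRL libraries without overlap. They were 84.1 to 377 CPM in CWOFP and 1716 to 2051 CPM in CTRL flies for the eye, 2872 to 3989 and 8601 to 12350 CPM for the gut enterocyte, 7431 to 14890 and 17830 to 29250 CPM for the fat body, and 723 to 1375 and 2575 to 3348 CPM for the ovary, in the same order. Within these lists, CWOFP and CTRL libraries overlapped for osk (means of 117 and 143 CPM), bcd (71.6 and 62.6 CPM), and Apoltp (199 and 208 CPM). The part of these lists in the fall of *Hpd* and *hgo* was not tested.

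One other pathway gene of 25 passed in CWOFP compared with CTRL flies. *Gnmt*, glycine N-methyltransferase, fell to 15.2, 11.5, and 8.26 CPM in CWOFP libraries, against 43.4, 66.7, and 39.7 CPM in CTRL libraries (log2 fold change -2.13, adjusted p = 0.0159). The call of *Gnmt* was lost without CTRL replicate 2 (adjusted p = 0.0629, log2 fold change -1.84) and without CTRL replicate 1 (adjusted p = 0.0661), within a range of 9.27e-09 to 0.0661 over the alternatives. The isomerase genes had log2 fold changes of -0.16 for *GstZ1* and -0.25 for *GstZ2*, and *ple* had 0.65, with 55.3, 16.8, and 64.3 CPM in CWOFP libraries and neither call nor separation from the CTRL libraries.

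After rotenone, all 4 genes fell between the days. PD flies were collected at the end of rotenone feeding, so age, time, and the end of this feeding cannot be told apart. In PWOFC compared with PD flies, the log2 fold change was -1.18 for *Hn* (SE 0.13, adjusted p = 0.000116), -1.55 for *Hpd* (SE 0.19, adjusted p = 0.000183), -1.60 for *hgo* (SE 0.19, adjusted p = 0.000192), and -1.54 for *Faa* (SE 0.17, adjusted p = 0.000133). The means were 127 ± 10.7 CPM in PWOFC and 307 ± 9.82 CPM in PD flies for *Hn*, and 10.2 ± 1.10 CPM in PWOFC and 31.4 ± 2.96 CPM in PD flies for *Faa*. All 12 alternatives kept the 4 calls.

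This comparison moved most genes. Of 12436 genes tested 64.1% passed, 34.0% passed as lower in PWOFC flies, and 40.6% had PWOFC libraries below PD libraries without overlap, as had all 4 genes. The median log2 fold change was -1.55 over the 4 genes and -0.09 over all genes. Under upper quartile scaling the median of all genes moved to -0.39, and the 4 genes still passed as lower. Eye genes were at 93.4 to 546 CPM in PWOFC and 2893 to 3665 CPM in PD flies, ovary genes at 2365 to 4002 and 712 to 1168 CPM, fat body genes at 25680 to 30430 and 9581 to 9755 CPM, and gut enterocyte genes at 5808 to 6705 and 7165 to 9763 CPM in PWOFC and PD flies in that order. The sums of flight muscle and Malpighian tubule genes were lower in PWOFC flies without overlap. Of the gut enterocyte genes only alphaTry did not overlap, with means of 1938 CPM in PWOFC and 4421 CPM in PD flies. Jon65Aiv (3916 and 3878 CPM) and LManII (359 and 374 CPM) overlapped. So did fln, Uro, Apoltp, and FASN1 of the other lists. The part of these lists in the fall of the 4 genes was not tested.

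Other enzymes passed in both directions in PWOFC compared with PD flies, 9 of 25 as lower and 4 as higher. Over all genes tested, 34.0% passed as lower and 30% as higher, so 9 of 25 was near the share of all genes. At the isomerase step, *GstZ2* fell (log2 fold change -1.19, adjusted p = 0.00117), with 5.49, 7.00, and 7.51 CPM in PWOFC libraries against 20.6, 14.02, and 13.9 CPM in PD libraries. *GstZ1* had 20.2, 16.02, and 18 CPM in PWOFC libraries against 12.5, 16.1, and 13.0 CPM in PD libraries (log2 fold change 0.47, adjusted p = 0.0504). Of the 5 cofactor genes 0 passed in edgeR, and 0 had an unadjusted p under 0.05. Of the 5 genes of other uses of tyrosine, *ple* (-0.71), the dopa decarboxylase gene *Ddc* (-1.06), and the tyrosine decarboxylase gene *Tdc1* (-0.71) fell, and *TyrRS*, which charges tRNA with tyrosine, rose (0.33).

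Among the 13 genes tested for the breakdown of other amino acids, 5 fell and 3 rose in PWOFC compared with PD flies. *Gnmt* fell by 2.197 on the log2 scale and the sarcosine dehydrogenase gene *Sardh* by 0.98. *KFase*, kynurenine formamidase, fell by 1.499, *Agxt*, alanine-glyoxylate aminotransferase, by 0.95, and *v*, tryptophan 2,3-dioxygenase, by 0.46. The proline pathway genes *slgA* (0.48) and *P5CDh1* (0.35) and the ornithine aminotransferase gene *Oat* (0.50) rose. The calls of *v*, *P5CDh1*, *slgA*, and *TyrRS* were each lost with at least 1 library left out, and for *slgA* this was PD replicate 2. Without PD replicate 1, without PWOFC replicate 1, and without PWOFC replicate 2, the calls of *v*, *P5CDh1*, and *TyrRS* were lost, and without PD replicate 2 those of all 4. *TyrRS* was also lost without PD replicate 3 and without PWOFC replicate 3. The 4 calls as higher were lost under upper quartile scaling, and those of *ple*, *v*, *TyrRS*, *slgA*, and *P5CDh1* in a fit of all 6 groups. Of these genes, *KFase* shares 235 exonic bases (17.2%) with Daxx and *Tdc1* shares 246 (10.8%) with Rpp25 on the opposite strand, and their counts are uncertain to that extent.

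**Figure D4:**
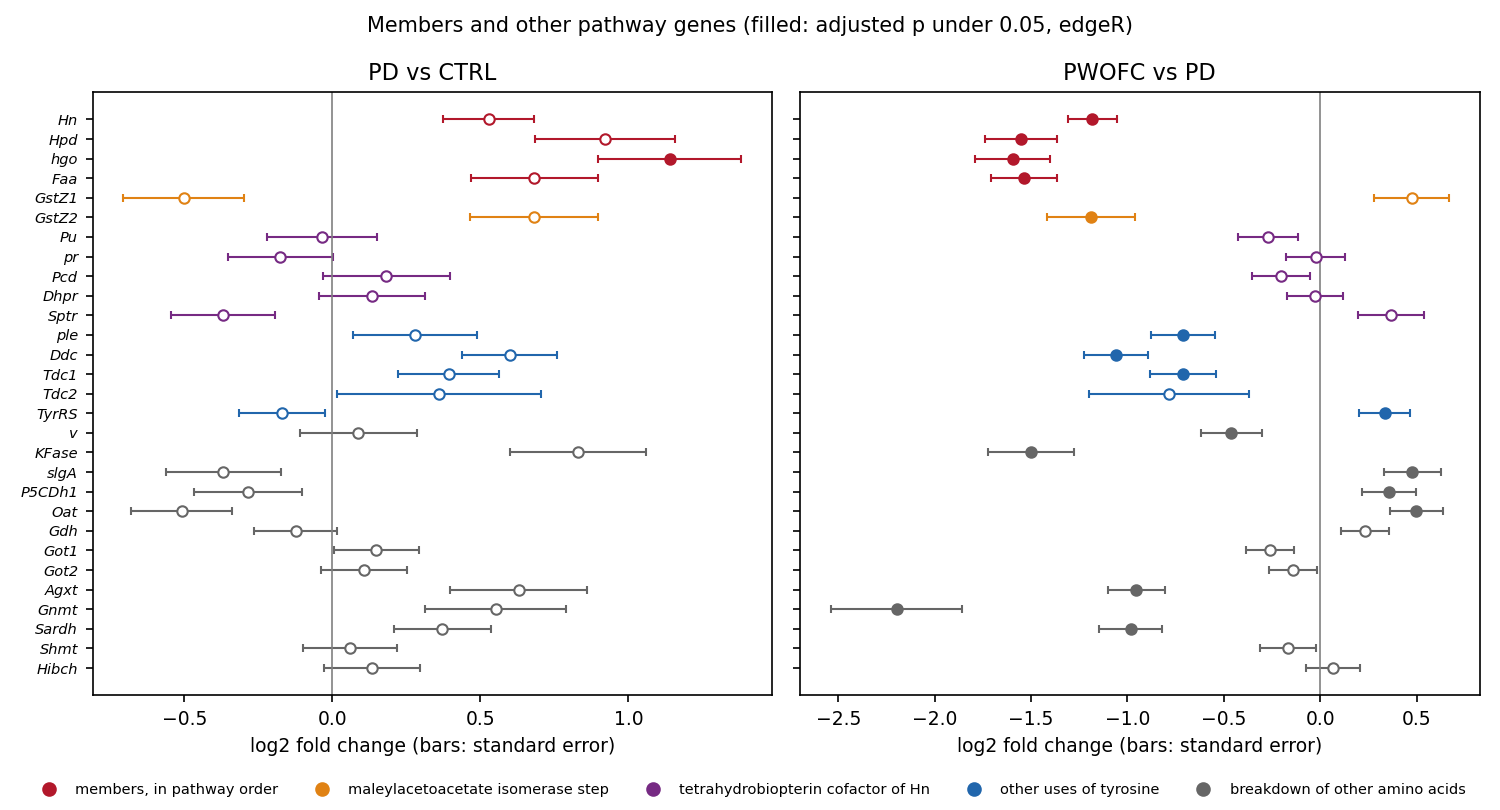
Log2 fold change with its standard error of the 4 pathway members and 25 other pathway genes, colored by list, in PD vs CTRL (left) and PWOFC vs PD (right), with filled points for an adjusted p under 0.05. On the left only hgo is filled, and on the right the 4 members and 9 other genes lie filled below zero and 4 genes filled above it.

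Whether the effect of rotenone changed between the days was tested as a difference of 2 log2 fold changes, PWOFC over CWOFP minus PD over CTRL. It was -0.30 for *Hn* (SE 0.19, adjusted p = 0.209), 0.14 for *Hpd* (SE 0.30, adjusted p = 0.706), -0.11 for *hgo* (SE 0.35, adjusted p = 0.802), and -0.49 for *Faa* (SE 0.29, adjusted p = 0.181). In edgeR 0 of the 4 passed, 0 had an unadjusted p under 0.05, and 0 passed in DESeq2. Of the 12817 genes tested 37.1% passed in edgeR and 6536 had an unadjusted p under 0.05, and in DESeq2 42.1% of 13247 genes passed. Without CTRL replicate 2, where 46% of all genes passed, *Faa* passed as lower (difference -0.75, adjusted p = 0.0258, within a range of 0.0258 to 0.389 over the alternatives). At the isomerase step, *GstZ2* passed (difference -0.88, SE 0.31, adjusted p = 0.0413). Its log2 fold change was -0.32 in PWOFC compared with CWOFP flies and 0.68 in PD compared with CTRL flies, neither of which passed. *GstZ1* of the same step had the other sign, 0.70 (SE 0.26, adjusted p = 0.0516, 0.0338 to 0.369 over the alternatives). The difference for *ple* was -1.29 (SE 0.54, adjusted p = 0.0724, 0.00759 to 0.176 over the alternatives). The call of *GstZ2* was lost without PD replicate 1, CTRL replicate 1, CTRL replicate 3, CWOFP replicate 2, CWOFP replicate 3, PWOFC replicate 1, or PWOFC replicate 2, and in the fit of all 6 groups, within a range of adjusted p of 0.0161 to 0.206.

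Across the 18 libraries the 4 genes varied together. On log2 CPM, Pearson's r was between 0.931 and 0.967 over the 6 pairs, and Spearman's rho between 0.895 and 0.969. Each of these 12 values had a permutation p of 1e-05, the smallest that 100000 permutations can give, and adjusted p of 1e-05. These permutations treated the 18 libraries as exchangeable, although they form 6 groups with different means, so the p also reflects differences that the genes share between groups. *Hpd* and *hgo* were the closest pair (r = 0.967), and *Hn* and *Faa* the least close. All 4 were read from the same libraries, so the values share depth and tissue makeup. Without the 2 libraries farthest from the median, r was between 0.887 and 0.949. Within day 7 (6 libraries, exact permutation tests), r was between 0.950 and 0.994 with adjusted p of 0.00278 to 0.00556. Within day 14 (12 libraries), r was lower, between 0.671 for *Hn* and *Faa* (adjusted p = 0.0142) and 0.895 for *Hpd* and *hgo* (adjusted p = 0.00036). The tests within each day also took libraries of different groups as exchangeable, so their p likewise reflects differences between groups. After the mean of each group was taken off, r was between 0.545 and 0.917, with no test.

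**Figure D5:**
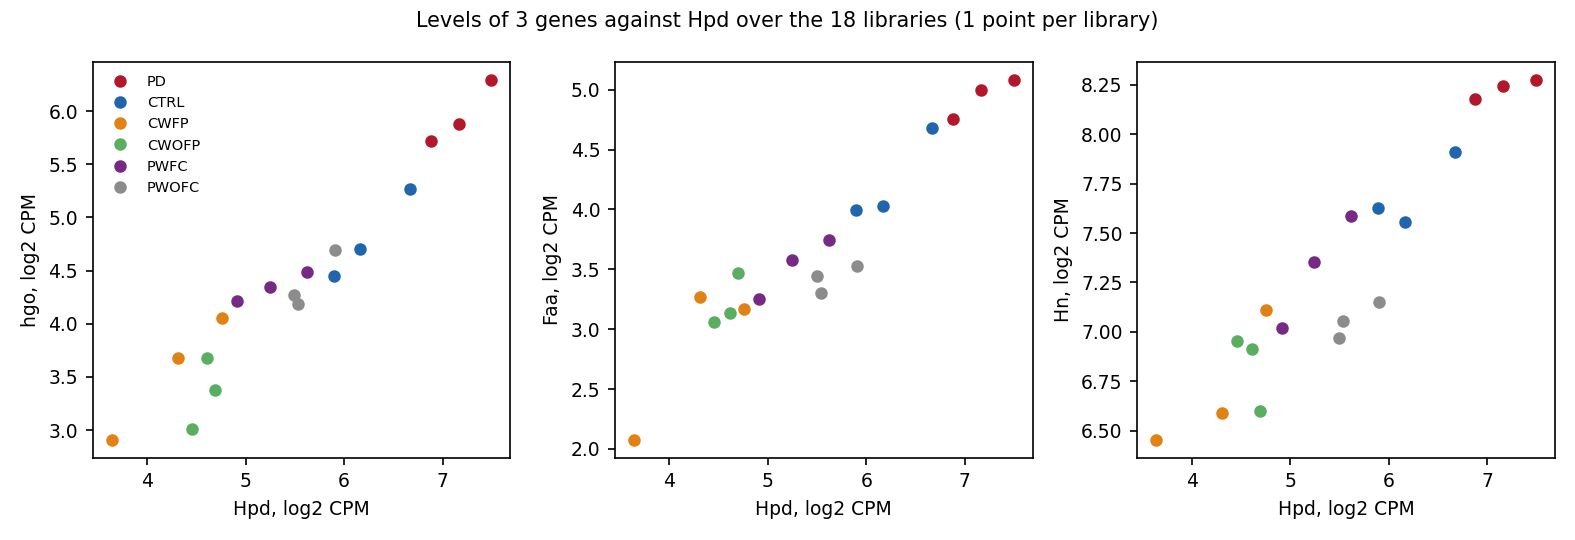
Log2 CPM of hgo, Faa, and Hn (vertical axes) against that of Hpd (horizontal axis), 1 point per library and colored by group. The 18 points rise together in each panel, with PD libraries at the top right and CWFP replicate 1 at the bottom left.

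The genes with the pattern most like each member were taken by the highest r over the 18 libraries among 12980 other genes, with the other members left out of the 3 named here. For *Hn* they were *CG14105* (r = 0.980), *CG6044* (0.965), and *CG8306* (0.9645). For *Hpd* they were *Jhbp14* (0.969), *CG40470* (0.948), and *CG31103* (0.945), and for *hgo* *Jhbp14* (0.951), *CG5397* (0.944), and *CG15209* (0.942), of which *CG15209* shares 299 of its exonic bases with CG32669 on the opposite strand. For *Faa* they were *Obp57b*, of the odorant-binding protein family (0.9745), *Hasp* (0.973), and *CG15201* (0.970). These r are a description and were not tested.

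Set among the same genes, *Hpd* ranked 1 for *hgo*, and *hgo* ranked 2 for *Hpd*. *Faa* ranked 3 for *Hpd*, whereas *Hpd* ranked 21 for *Faa*. *Hpd*, *hgo*, and *Faa* ranked 29, 47, and 49 for *Hn*. Of the isomerase genes, *GstZ2* ranked 99 for *Faa* (r = 0.925), and *GstZ1* had a negative r with each of the 4 genes, between -0.46 and -0.33.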

How the data were processed

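Poly(A) RNA-seq of 18 libraries was used, 3 per group by the sample labels. The authors trimmed reads with cutadapt, mapped them to dm6 with HISAT2, and deposited whole-number counts per gene from featureCounts. The submitters' notes also name FastQC, StringTie 1.3.1, and DESeq2 1.36.0. How strand and ambiguous reads were treated, and which annotation release was used, are not given in the sources used here. Of 24 labelled samples, 6 were not analysed here. Of 17611 identifiers, 17556 had a symbol in the table of names. Positions were read from Ensembl's BDGP6.54 gene models.

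CPM was the count over the library's total. Every comparison of a pair of groups used only their 6 libraries, in edgeR 4.0.16 in R 4.3.3 (filterByExpr, TMM, robust glmQLFit, glmQLFTest), and the 2 differences of effects used 12 libraries. Genes passed at a Benjamini-Hochberg adjusted p under 0.05 over all genes tested, with no threshold on fold. Log2 CPM for correlations had a prior count of 2. Alternatives were other scalings, no filter, DESeq2 1.42.0, one fit of 6 groups, the replicate number as a block, and each library left out. Tables used Python 3.11.15, pandas 2.3.3, and SciPy 1.17.1. The fits were tested on simulated counts.

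The members and lists were chosen with earlier results of these data known. Values are given for every member, for *GstZ1*, *GstZ2*, and *ple*, for other list genes that passed, and for the 3 genes most correlated with each member. List symbols found were 26 of 27 (Gldc was not), and *cn* failed the filter. Replicates differed by more than sampling noise in all 18 pairs (chi-square per degree of freedom of 22.4 or more, genes with at least 10 counts). Same-numbered CWFP and CWOFP libraries deviated together (correlations 0.488, 0.256, and 0.354), a pattern in the data and not in the labels. The block left 0 members passing there.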

Additional observations from a re-analysis of the deposited data

Results flagged for a closer look

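The effect of rotenone history differed between the days for 9 of the 25 pathway genes tested outside the members. Each passed the test of the difference itself (PWOFC over CWOFP minus PD over CTRL, edgeR, adjusted p under 0.05). Of all genes 37.1% passed, so 9 of 25 was near the share of all genes. The difference in log2 fold change was -0.88 for *GstZ2*, -1.15 for *Ddc*, -0.82 for *Tdc1*, -0.93 for *KFase*, and -0.97 for *Agxt*, whose log2 fold changes were positive in PD compared with CTRL flies and negative in PWOFC compared with CWOFP flies. The difference was 0.71 for *Sptr* (sepiapterin reductase), 0.87 for *slgA*, 0.79 for *P5CDh1*, and 0.99 for *Oat*, whose log2 fold changes were negative in PD compared with CTRL flies and positive in PWOFC compared with CWOFP flies. None of the 9 passed in either comparison by itself. The calls of *slgA* and *P5CDh1* were lost without PD replicate 1 or PD replicate 2, and that of *Tdc1* without CTRL replicate 3 or PWOFC replicate 1. Of the 12 libraries left out in turn, 4 ended the call of *Sptr*, 9 that of *KFase*, and 7 that of *Agxt*. The calls of *Ddc* and *Oat* held with each library left out. Over all 18 alternatives, the call was lost in 1 for *Ddc*, 2 for *Oat*, 3 for *Tdc1*, and 4 each for *slgA* and *P5CDh1*. It was lost in 6 for *Sptr*, 8 for *Agxt*, 10 for *GstZ2*, and 12 for *KFase*. In a fit of all 6 groups, where 2.67% of all genes passed, the 9 calls were lost. Groups of 3 libraries are too small for a test of single outlying libraries, and none was made.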

How the results depend on the processing

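Of the members tested, 4 passed in PWOFC compared with PD flies under every alternative, with 37.1% to 64.4% of all genes passing. In both FMT comparisons and in their difference 0 passed, with at most 0.916% of all genes passing. In PD compared with CTRL flies 1 passed, with 3.17% of all genes. Under upper quartile scaling 3 passed (*Hn*, *Hpd*, and *hgo*, with 7.79% of all genes), and with no filter on low counts 2 passed (6.73%). DESeq2 passed 4 (25%), and a fit of all 6 groups passed 0 (0.193%). With 1 library left out, 0 to 4 passed (0.305% to 41.9% of all genes). With the replicate block 2 passed (*Hpd* and *hgo*, with 1334 genes passing against 401). Same-numbered PD and CTRL libraries did not deviate together (correlations -0.28, 0.11, and 0.16), so this block pairs libraries by number only. In PWOFC compared with CWOFP flies 2 passed in DESeq2 (10.7% of all genes) against 0. In CWOFP compared with CTRL flies, where 2 passed, 1 passed under upper quartile scaling (1.58% of all genes), 4 in DESeq2 (4.98%), and 1 with each library left out (0.427% to 2.13%). For the change of the rotenone effect between the days, 1 passed under upper quartile scaling (*Hn*), with 34.1% of all genes. With 1 library left out 0 to 1 passed, with 12.7% to 46% of all genes. The replicate block changed no other call of a member, and among the other genes named it ended those of *GstZ2* (-0.89, adjusted p = 0.0618) and *KFase* for the day difference and of *v*, *P5CDh1*, *slgA*, and *TyrRS* in PWOFC compared with PD flies.

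Signs changed only for values that did not pass. Under upper quartile scaling *hgo* had 0.015 in PWFC compared with PWOFC flies, *GstZ1* had -0.00090 in PWOFC compared with CWOFP flies, and the day difference of *Hpd* was -0.22. The difference of FMT effects for *Hpd* was -0.048 under RLE scaling, -0.025 under upper quartile scaling, -0.049 in DESeq2, and -0.084 in the fit of 6 groups, and that of *GstZ1* was 0.0010 with the replicate block. With 1 library left out, CWFP compared with CWOFP flies gave -0.0033 to 0.32 for *GstZ1*, -0.41 to 0.0087 for *Hn*, and -0.12 to 0.47 for *hgo*. PWFC compared with PWOFC flies gave -0.13 to 0.32 for *GstZ2* and -0.16 to 0.15 for *hgo*, and PWOFC compared with CWOFP flies -0.028 to 0.17 for *GstZ1* and -0.0095 to 0.23 for *Hn*. The difference of FMT effects ranged over -0.17 to 0.072 for *GstZ1*, -0.25 to 0.22 for *Hpd*, and -0.48 to 0.00040 for *hgo*, and the day difference over -0.10 to 0.31 for *Hpd* and -0.38 to 0.066 for *hgo*. Upper quartile scaling moved the median over all genes, in log2 fold change, to 0.23 in PD compared with CTRL flies (0.05 under TMM), -0.39 in PWOFC compared with PD flies (-0.09), and -0.38 for the day difference (-0.01). Of all genes, 401 passed in PD compared with CTRL flies, against 985 under upper quartile scaling, 2978 in DESeq2, and 25 in the fit of 6 groups, and 4760 passed for the day difference, against 347 in the fit of 6 groups. The cause of these changes was not tested. With a library left out its group held 2.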
